A study of Mus musculus with 16 samples.

Results

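The enzymes that turn cholesterol into bile acids were followed in liver and fat of male mice born to control or obese fathers. They were the 10 genes Cyp7a1, Cyp8b1, Cyp27a1, Cyp7b1, Hsd3b7, Akr1d1, Amacr, Baat, Slc27a5 and Cyp2c70, taken from the array's annotation by gene symbol, and each was read by 1 probe set. They are 10 of the 19505 genes named on the array, and all 10 passed the filter on dim genes in both tissues. RNA was measured on arrays in 16 samples of C57BL/6J males aged 14 weeks, an inbred laboratory strain. Each of the 4 groups held 4 libraries, named here by group and number: liver CT and eWAT CT came from control fathers and control mothers, and liver F1 and eWAT F1 from obese fathers and control mothers. Before mating, obese fathers were kept for 12 weeks on food with 45% lipids and control fathers on chow, from 8 weeks of age, per the labels' protocols. eWAT is the labels' name for a white adipose tissue. The samples of each group are labelled biological replicates with no father, litter or cage named, so each p-value reflects the spread among these samples, and some may share a father.

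Bile acids are made in hepatocytes along a classic and an alternative route. Cyp7a1 opens the classic route in the endoplasmic reticulum by adding a hydroxyl group to cholesterol, and it is the step that limits the rate. Cyp27a1, in mitochondria, and Cyp7b1 after it open the alternative route, which also runs in cells outside the liver. Hsd3b7 and Akr1d1 then rebuild the steroid ring, and Cyp8b1 decides between cholic acid and the chenodeoxycholic acid branch. Amacr takes part in shortening the side chain in peroxisomes, and Slc27a5 and Baat join the acid to taurine or glycine. Cyp2c70 makes the muricholic acids that set mouse bile apart from human bile. Bile acids returning to the liver lower the synthesis through the receptor Nr1h4 and its target Nr0b2.

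Promoters were looked at because hepatocyte factors such as Hnf4a drive several of these genes. RefSeq promoter windows (GRCm38.p6) were matched for 5 of the 10 members: Akr1d1, Cyp27a1, Cyp2c70, Cyp8b1 and Hsd3b7. In the 250 bases before the start site, both strands were searched for CAAAGTCCA, a core of Hnf4a sites. It was present in Cyp8b1 and Cyp2c70 and in 0.384% of all 32851 promoter windows, 126 in number. The 2 windows that hold it are shown 5′ to 3′ on the gene's strand, with the core in capitals. They lie at chr9:121916306-121916555 for Cyp8b1 and at chr19:40187287-40187536 for Cyp2c70, both on the minus strand.
Cyp8b1: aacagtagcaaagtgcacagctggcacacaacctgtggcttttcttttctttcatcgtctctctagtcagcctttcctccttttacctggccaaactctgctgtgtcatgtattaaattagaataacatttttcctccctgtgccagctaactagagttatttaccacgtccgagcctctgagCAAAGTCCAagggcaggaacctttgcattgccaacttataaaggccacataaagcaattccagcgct
Cyp2c70: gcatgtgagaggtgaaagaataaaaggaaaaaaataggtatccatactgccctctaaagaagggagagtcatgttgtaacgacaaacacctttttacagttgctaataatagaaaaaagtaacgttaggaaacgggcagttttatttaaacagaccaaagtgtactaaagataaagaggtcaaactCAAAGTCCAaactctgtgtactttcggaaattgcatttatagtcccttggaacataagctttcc

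The core ran from 67 to 59 bases before the start in Cyp8b1 and from 64 to 56 bases before it in Cyp2c70. In Cyp8b1 it shared 2 bases with CAAGGGCA, a match to CAAGGNCA, the core bound by Nr5a2, which 5.53% of all windows hold. The D-box TTATGNAA, bound by Dbp and its relatives, was found in Akr1d1 and Cyp27a1 and in 3.07% of all windows. Both printed windows held TATAAA, in Cyp8b1 31 to 26 bases before the start and in Cyp2c70 on the opposite strand 29 to 24 bases before it, against 12.4% of all windows. A match is a description of letters and shows no binding.

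Levels are log2 values, so a difference of 1 is a doubling. Library medians lay at 5.21 to 5.24 in liver and 6.34 to 6.56 in eWAT, so levels in the 2 tissues are not on 1 scale. Liver libraries held hepatocyte markers at list medians of 19.45 to 19.61, near the top of the scale, and adipocyte markers at 3.91 to 4.93. In eWAT the adipocyte list stood at 17.76 to 18.03, while the hepatocyte list ran from 6.77 to 13.21. The median of 9 exocrine pancreas markers was 12.13 in liver F1 4 and at most 5.16 in the other 7 liver libraries. In eWAT F1 1 the seminal vesicle gene Svs2 reached 16.22, against 2.47 to 4.88 in the other 7.

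In liver, the enzymes differed in both directions between offspring groups, and no single one passed the test. Cyp7b1 and Cyp2c70 had higher means in F1 and Hsd3b7 and Baat lower ones, while the remaining 6 differed by 0.40 (Cyp7a1) or less in size. Limma called 0 of the 10 members at an adjusted p under 0.05, against 23 of 14772 genes (0.156%). The count over all genes was 7 without CT 2 or without F1 3, 8 without CT 4, and 10 without CT 3 or without F1 2, and the members' count was 0 each time. At an unadjusted p under 0.05 there were 4 members, Cyp7b1, Cyp2c70, Hsd3b7 and Baat, against 9.12% of all genes. The median difference over the 10 members was -0.04, and over all genes tested it was 0.00. The 8 libraries are bulk tissue, in which fewer cells of a type and less RNA per cell cannot be told apart.

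**Figure D1:**
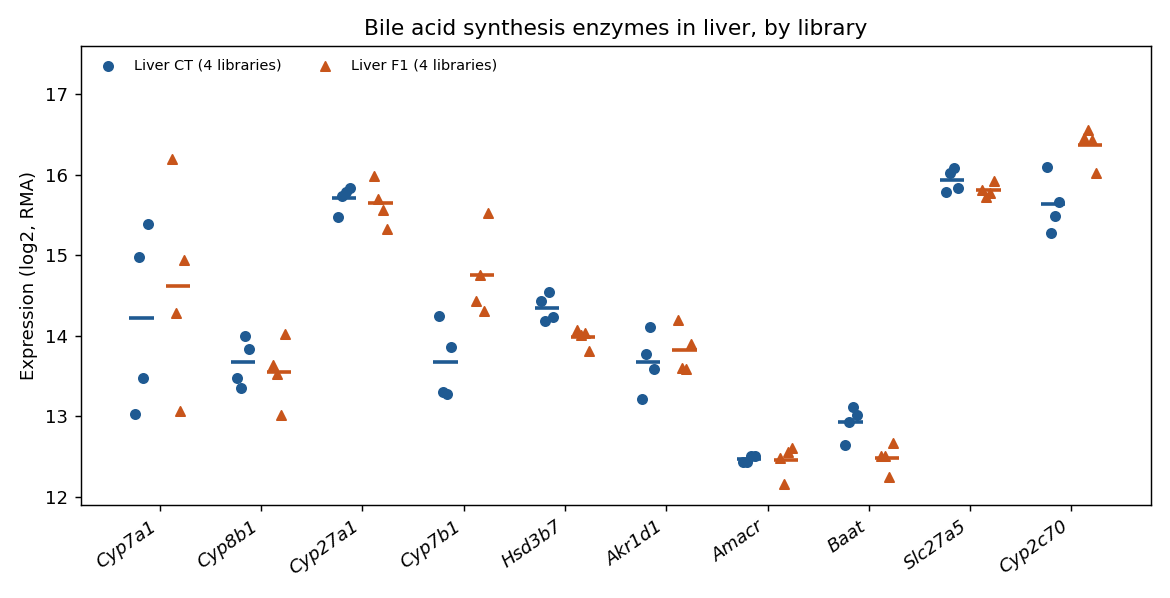
Log2 expression of the 10 bile acid synthesis enzymes in each liver library, CT as blue circles and F1 as orange triangles, with a line at each group's mean. Cyp7b1 is higher and Hsd3b7 lower in F1 with no overlap, while Cyp7a1 is scattered from 13.03 to 16.19 over both groups; heights of different genes are not comparable.

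Cyp7a1, the first enzyme of the classic route, was the most variable member in liver. It stood at 13.03, 14.98, 13.47 and 15.39 in CT 1 to 4 and at 16.19, 14.28, 13.07 and 14.94 in F1 1 to 4. Each group held libraries at both ends of the scale, and the groups overlapped over most of their range. Its mean was 14.22 ± 1.14 (SD, n = 4) in CT and 14.62 ± 1.30 in F1, and the difference of 0.40 ± 0.68 (SE) did not pass (adjusted p = 0.912, limma). The 95% interval ran from -1.12 to 1.93, so differences of either sign within those bounds are not excluded. Without F1 1 the difference was -0.12. The pooled SD within groups was 1.23, above that of 99.6% of the genes tested, whose median SD was 0.30. Over the 8 liver libraries, the genes whose deviations from the group means were most like those of Cyp7a1 were Cmtr2 (Pearson r = 0.975), Chsy1 (0.961) and Lipn (0.960), out of 13527 searched.

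Cyp8b1, which sets the cholic acid branch, had nearly the same mean in both groups. It stood at 13.48, 13.35, 14.00 and 13.84 in CT 1 to 4 and at 13.64, 13.52, 13.02 and 14.02 in F1 1 to 4. The F1 libraries enclosed the CT range, and the difference was -0.12 ± 0.23 (adjusted p = 0.928, limma; 95% interval -0.64 to 0.41).

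Neither enzyme of the alternative route passed. Cyp27a1, which opens it, stood at 15.48, 15.74, 15.79 and 15.83 in CT 1 to 4 and at 15.99, 15.70, 15.56 and 15.32 in F1 1 to 4, a difference of -0.07 ± 0.18 (adjusted p = 0.949, limma; 95% interval -0.46 to 0.33). Cyp7b1, which acts on its product, stood at 14.24, 13.30, 13.27 and 13.86 in CT 1 to 4. In F1 1 to 4 it stood at 14.43, 14.75, 14.31 and 15.53. All 4 F1 libraries lay above all 4 CT libraries, though F1 3 exceeded CT 1 by little. The mean was 13.67 ± 0.47 in CT and 14.76 ± 0.55 in F1, a 2.13-fold difference of 1.09 ± 0.31 that did not pass (adjusted p = 0.293, limma). Leaving out single libraries gave 0.83 to 1.28, the lowest without F1 4, the library with pancreas transcripts. In deviations from the group means over the 8 liver libraries, Cyp7b1 was most like Spry3 (Pearson r = 0.985), Vav1 (0.976) and Ifi27l2b (0.969). This was again out of 13527 genes searched, where every member had a match about this close.

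Cyp2c70, the hydroxylase of muricholic acid synthesis, stood at 16.10, 15.28, 15.49 and 15.66 in CT 1 to 4 and at 16.46, 16.55, 16.43 and 16.02 in F1 1 to 4. The groups overlapped only through CT 1 and F1 4. The means were 15.63 ± 0.35 and 16.37 ± 0.24, a 1.66-fold difference of 0.73 ± 0.21 that did not pass (adjusted p = 0.292, limma). Cyp2c70 belongs to a large family of similar Cyp2c genes, and whether its probe set also reads other genes of that family was not examined.

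Hsd3b7 and Akr1d1, the enzymes of the ring, had F1 means on opposite sides of CT. Hsd3b7 stood at 14.43, 14.18, 14.54 and 14.23 in CT 1 to 4 and at 14.07, 14.01, 14.03 and 13.81 in F1 1 to 4. Every F1 library lay below every CT library, but by a small amount: the difference was -0.37 ± 0.15 and did not pass (adjusted p = 0.503, limma). Akr1d1 ran from 13.21 to 14.11 in CT and from 13.59 to 14.19 in F1, and differed by 0.15 ± 0.22 (adjusted p = 0.891, limma). Hsd3b7 and Cyp7b1 were the 2 members whose groups did not overlap, against 5.36% of all genes.

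Among the enzymes of side chain and conjugation, Baat had the largest difference. It stood at 12.64, 12.93, 13.12 and 13.02 in CT 1 to 4 and at 12.51, 12.51, 12.24 and 12.67 in F1 1 to 4. Only CT 1 and F1 4 crossed, and the difference of -0.45 ± 0.16 did not pass (adjusted p = 0.462, limma). Slc27a5, which activates bile acids for Baat, ran from 15.79 to 16.08 in CT and from 15.72 to 15.92 in F1 (difference -0.13 ± 0.14, adjusted p = 0.848, limma). Amacr, the racemase that readies the side chain, was the tightest in CT, at 12.43 to 12.51, and ran from 12.16 to 12.61 in F1 (-0.02 ± 0.15, adjusted p = 0.985, limma). For Slc27a5 and Amacr the 95% intervals, -0.44 to 0.19 and -0.35 to 0.31, hold no difference as large as that of Cyp7b1.

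**Figure D2:**
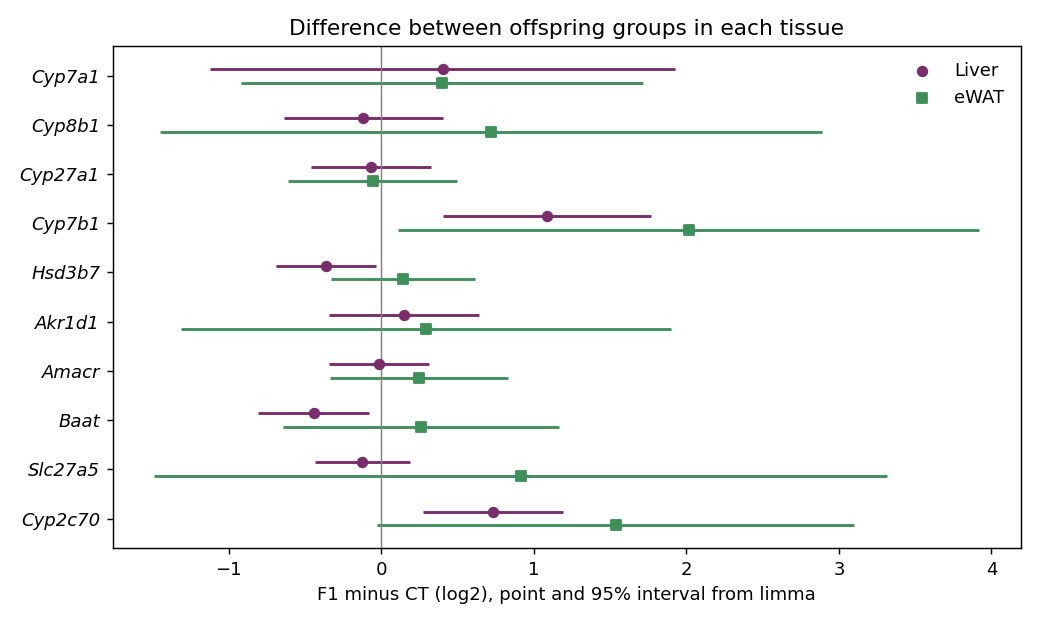
Difference between offspring groups (F1 minus CT, log2) of each enzyme in liver (purple circles) and eWAT (green squares), with 95% intervals from limma. In liver the intervals of Cyp7b1, Cyp2c70, Hsd3b7 and Baat lie off 0, and none of the 10 members passed after adjustment; the intervals in eWAT are wider for most members.

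The rest of the pathway gave no called gene in liver. Of the 16 listed enzymes that also take part in bile acid synthesis, 14 were on the array and 13 were tested. Of these 4 had higher means and 9 lower means in F1, with a median of -0.12 and 0 called. Cyp46a1, which hydroxylates cholesterol mostly in brain, differed by -0.72 ± 0.21 (adjusted p = 0.320), at levels of 3.90 to 5.17 near the bottom of the scale. Fdx1, the electron donor of mitochondrial enzymes such as Cyp27a1, differed by 0.45 ± 0.17 (adjusted p = 0.464). Hsd17b6 differed by -0.94 ± 0.57, and Cyp39a1, an oxysterol hydroxylase, by -0.71 ± 0.43.

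Regulators of the pathway also gave 0 called of 18 tested, 8 with higher and 10 with lower means (median -0.04). Klb, the co-receptor through which the hormone Fgf15 restrains Cyp7a1, differed by -0.42 ± 0.17 (adjusted p = 0.507, limma). Nr5a2, an activator of the Cyp8b1 promoter, differed by -0.39 ± 0.17 (adjusted p = 0.536, limma). Prox1 differed by 0.60 ± 0.31 and Foxa2 by 1.01 ± 0.53, and neither passed. Of the transporters, 1 of 13 tested had a higher and 12 a lower mean (median -0.33), with 0 called. The basolateral exporter Abcc3 had the smallest p (-0.90 ± 0.17, adjusted p = 0.0965, limma), and Abcc4 differed by 0.73 ± 0.26, the phospholipid exporter Abcb4 by -0.38 ± 0.15 and the uptake carrier Slc10a1 by -0.55 ± 0.23.

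Acute-phase genes had higher means in F1 in the same 8 livers, and clock genes differed in both directions. The acute-phase list had a median level of 10.63 to 11.49 across CT and of 12.93 to 14.92 across F1, with no overlap. All 16 genes of that list had higher means in F1, and limma called 2, Mt2 and Fgl1, against 0.156% of all genes. This list and the clock list were chosen with earlier results of these data known, so their counts are no independent comparison. The clock list's median was 7.96 to 8.50 in CT and 8.37 to 9.25 in F1. That list holds 10 genes with higher and 4 with lower means in F1. Limma called 0 of 14, with 5 at an unadjusted p under 0.05, against 9.12% of all genes. In 4 of 14 the groups did not overlap, against 5.36% of all genes. These were Nr1d1 (1.58 ± 0.29, adjusted p = 0.0965, limma), Per3 (1.72 ± 0.43), Dbp (2.82 ± 0.83) and Npas2 (-1.86 ± 0.54). Dbp, a clock-controlled factor that activates Cyp7a1, stood at 6.22, 8.44, 7.82 and 8.38 in CT 1 to 4 and at 8.83, 9.04, 12.39 and 11.87 in F1 1 to 4. Cyp7a1 itself stood at 13.03, 14.98, 13.47 and 15.39 in CT 1 to 4 and at 16.19, 14.28, 13.07 and 14.94 in F1 1 to 4. The labels give neither the hour of sampling nor the feeding state. The part of the acute-phase and clock genes in the enzyme differences was not tested.

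**Figure D3:**
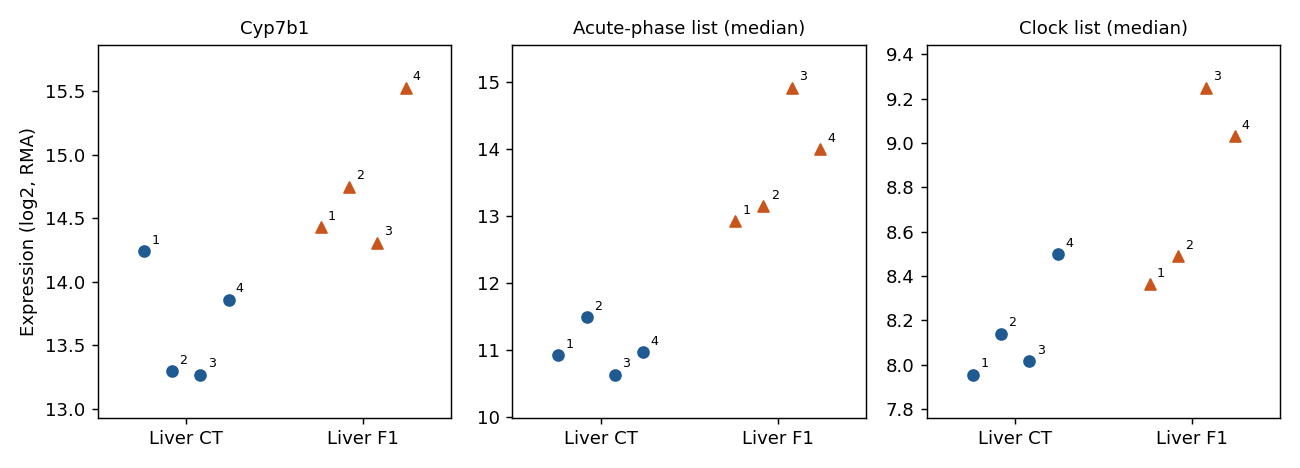
Log2 level of Cyp7b1 and median level of the acute-phase and clock lists in each liver library, numbered 1 to 4 within its group. Acute-phase medians separate the groups (10.63 to 11.49 against 12.93 to 14.92), and Cyp7b1 also does. Within F1, F1 3 has the highest acute-phase median but the lowest Cyp7b1 (14.31), while F1 1, F1 2 and F1 4 rise in both. Within CT, CT 2 has the highest acute-phase median (11.49) with Cyp7b1 at 13.30. CT 1 has the highest Cyp7b1 of that group (14.24) with a median of 10.92. The clock medians, of genes that went both ways, overlap between CT 4 and both F1 1 and F1 2.

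In control offspring, all 10 enzymes were brighter in liver than in eWAT. Limma called 10 of 10 higher in liver, against 2787 of 15116 genes (18.4%), and in each member the 4 liver libraries lay above the 4 eWAT libraries. Differences were smallest for Hsd3b7 (4.18 ± 0.16, adjusted p = 2.70e-09), Cyp27a1 (4.52 ± 0.19, 4.79e-09) and Amacr (5.45 ± 0.22, 4.37e-09). The other 7 differed by 8.10 to 10.30 by their fitted means. In eWAT CT, Cyp8b1 in CT 1 and CT 2 and Cyp7b1 in CT 1 were at 3.02 to 3.27, under the eWAT 25th percentile of 3.47, and Cyp2c70 and Slc27a5 stood at 3.88 to 4.34 in those 2 libraries. Akr1d1 stood at 3.62 in CT 2, and Baat at 3.91 in CT 1 and 3.98 in CT 4. The sizes of the differences are approximate, since the tissues are not on 1 scale. Cyp8b1, Cyp7b1, Cyp2c70, Slc27a5, Akr1d1 and Baat also had levels near the bottom of the scale in some eWAT libraries. The median of all genes in that comparison was -0.80, and 24.8% of the called genes were higher in liver. After quantile normalization over all 16 samples the median was 0.00 and that share 48.6%, and all 10 members were again called higher in liver.

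In eWAT, 3 members spanned about 1 on the log2 scale and the other 7 spanned more. Cyp27a1 stood at 11.21, 11.56, 11.11 and 10.87 in CT 1 to 4 and at 10.52, 11.09, 11.42 and 11.49 in F1 1 to 4. Hsd3b7 ran from 10.08 to 10.33 in CT and from 9.78 to 10.75 in F1, and Amacr from 6.58 to 7.62 and from 6.95 to 7.66. These 3 spanned 0.97 to 1.08 over the 8 libraries, and their pooled SDs within groups of 0.37, 0.30 and 0.40 lay at the 61.2, 43 and 66.4 percentiles of all genes tested, so near the middle. In CT 1 and CT 2, where the hepatocyte list's median was lowest, Cyp27a1 and Hsd3b7 stood well above the library medians and Amacr near them.

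The other 7 members spanned 1.63 to 5.56. Cyp7b1 stood at 3.27, 4.35, 5.64 and 5.53 in CT 1 to 4 and at 4.95, 7.44, 5.63 and 8.83 in F1 1 to 4. Slc27a5, which spanned 4.69, stood at 4.18, 4.34, 7.97 and 6.77 in CT and at 4.68, 7.61, 5.75 and 8.87 in F1. Cyp8b1 stood at 3.18, 3.02, 5.36 and 5.54 in CT and at 3.65, 5.40, 3.34 and 7.59 in F1. For all 3 genes CT 1 and CT 2 were the lowest libraries and F1 4 the highest. The 25th percentile of the eWAT libraries averaged 3.47, so Cyp8b1 in CT 1, CT 2 and F1 3, and Cyp7b1 in CT 1, lay below that percentile. Cyp7a1 stood at 6.57, 4.89, 6.46 and 6.55 in CT and at 6.11, 6.37, 5.43 and 8.15 in F1, so CT 1, the library with the lowest hepatocyte median, held its second highest value.

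The hepatocyte list's median was also lowest in CT 1 and CT 2 and highest in F1 4. The libraries between stood in a similar but not identical order for Cyp7b1, Slc27a5 and Cyp8b1. For Slc27a5 only F1 1 with F1 3 and CT 3 with F1 2 changed places. The list's median stood at 6.77, 7.04, 11.71 and 11.43 in eWAT CT 1 to 4 and at 9.66, 12.45, 9.01 and 13.21 in F1 1 to 4. Albumin (Alb) stood at 14.16, 12.43, 18.91 and 18.55 in CT and at 16.95, 18.77, 16.65 and 19.07 in F1. CT 1 and CT 2 were the lowest pair in 5 of 10 members, in 9 of 10 hepatocyte markers and in 5.90% of all genes tested. F1 4 was the highest library in 7 of 10 members, in 10 of 10 hepatocyte markers and in 11.6% of all genes. These libraries are the ends of the median of the same 10 markers, so the marker counts are no independent comparison. The members with CT 1 and CT 2 as the lowest pair were Cyp8b1, Cyp7b1, Akr1d1, Slc27a5 and Cyp2c70.

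**Figure D4:**
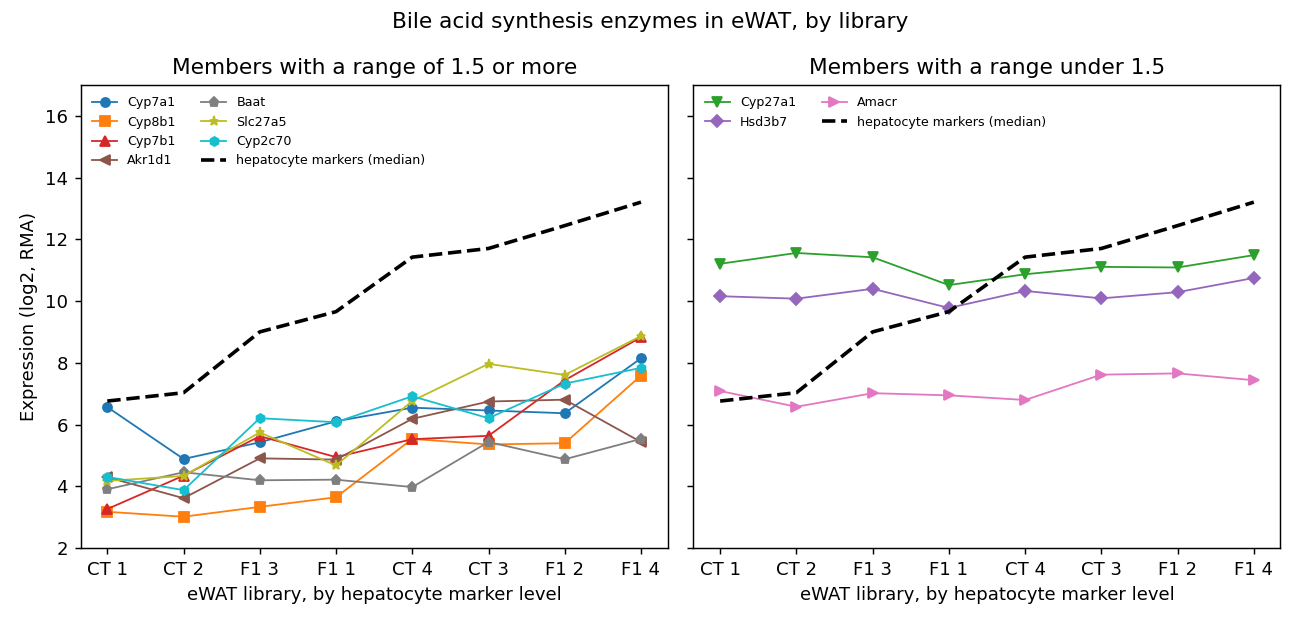
Log2 expression of the enzymes in the 8 eWAT libraries, ordered by the median of 10 hepatocyte markers (dashed black line); the left panel holds the 7 members with a range of 1.5 or more and the right panel the 3 with less, a division made after the values were seen. Lines in the left panel are higher at F1 4 than at CT 1 and CT 2, with Baat and Akr1d1 least so, while Cyp27a1, Hsd3b7 and Amacr stay within 0.97 to 1.08 of range.

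Between offspring groups in eWAT, limma called 0 of the 10 members and 0 of 14766 genes (0%), or 1 gene without CT 4 or without F1 4. At an unadjusted p under 0.05 there was 1 member, Cyp7b1, against 9.99% of all genes, and 0 members had groups that did not overlap, against 5.92%. By their means 9 members were higher in F1 and 1 lower, with a median of 0.35 against 0.00 for all genes, while the hepatocyte list was higher in 10 of 10 with a median of 1.99. Cyp7b1 differed by 2.02 ± 0.85 (adjusted p = 0.473, limma; 1.31 without F1 4) and Cyp2c70 by 1.54 ± 0.69 (adjusted p = 0.508, limma). With the hepatocyte median as a covariate, an alternative added after the data were seen, these were 1.02 ± 0.47 and 0.65 ± 0.27, and Cyp8b1, Slc27a5, Akr1d1, Cyp7a1 and Baat changed sign, from 0.72, 0.91, 0.29, 0.40 and 0.26 to -0.47, -0.44, -0.53, -0.11 and -0.08. Cyp27a1 differed by -0.06 ± 0.25 (95% interval -0.61 to 0.50) and Hsd3b7 by 0.14 ± 0.21 (-0.33 to 0.61).

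The difference between offspring groups was not shown to depend on the tissue for any member. The interaction called 0 of 10 members, against 12 of 15090 genes (0.0795%; 7 without eWAT CT 3, 22 without liver F1 4 and 27 without eWAT F1 3), and 0 members had an unadjusted p under 0.05, against 9.79% of all genes. Hsd3b7, lower in F1 in liver and higher in eWAT by their means, had the smallest p among the members, with an interaction of -0.51 ± 0.26 (liver minus eWAT, adjusted p = 0.547, limma). For Cyp7b1, higher in F1 by its means in both tissues, the interaction was -0.93 ± 0.95 (adjusted p = 0.785, limma), and its 95% interval ran from -2.93 to 1.08.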

How the data were processed

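The values used are the deposited log2 expression levels. They came from the RMA method in Transcriptome Analysis Console 4.0, which the submitters' processing notes name as the authors' tools. RMA corrects background, aligns distributions and summarises the probes of a probe set. Liver and eWAT have different distributions, so the tissues appear to have been normalized separately. Scanner files and scan batches were not used here. By the platform's annotation, 19572 of 22206 probe sets had 1 symbol, 0 several and 2634 none. For the 55 symbols with several probe sets the brightest was kept, and each member had 1.

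Groups were compared with limma 3.58.1 in R 4.3.3 (lmFit, eBayes) over all kept genes, with Benjamini-Hochberg adjustment and a threshold of 0.05, in 8 libraries per fit and 16 for the interaction. Genes with a mean below the 25th percentile of the fit's libraries were left out. All adjusted p-values are limma's. Errors after ± are SDs of levels and SEs of differences. The liver fit was also run on simulated data with independent noise and known differences. Such data hold no shared fathers and no transcripts of other tissues, so they cannot show how these affect the fit. The small number of arrays limits the precision.

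Members and lists were chosen with earlier results of these data known. Named were all members, up to 4 genes of each companion list by smallest liver p, and the 3 genes most like Cyp7a1 and Cyp7b1. Genes named from the context and marker lists were chosen after their values were seen. Alternatives were filters, scalings, eBayes settings, array weights, a replicate block, joint fits, mean probe sets, single libraries left out and, for eWAT, a hepatocyte covariate.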

Additional observations from a re-analysis of the deposited data

Results flagged for a closer look

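Cyp7a1 in eWAT CT 2 stood at 4.89, far below the 6.46 to 6.57 of the other 3 libraries of its group. The threshold for such a gap is one that chance passes in about 1 of 20 groups of 4 libraries, and 40 groups of values (10 members in 4 groups) were examined. CT 2 was also the eWAT library with the lowest Alb, at 12.43. CT 1, with the next lowest Alb (14.16), held the highest Cyp7a1 of the group, 6.57.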

How the results depend on the processing

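No member was called between offspring groups under any alternative run in liver (17), eWAT (18) or the interaction (24), and all 10 members were called higher in liver than eWAT under all 16. In liver, Cyp7b1, Cyp2c70, Hsd3b7, Baat and Slc27a5 kept their direction under every alternative, and in eWAT Cyp7b1, Cyp2c70 and Amacr did. With single libraries left out, the liver differences ran from -0.12 to 0.92 for Cyp7a1, -0.27 to 0.059 for Cyp8b1, -0.18 to 0.04 for Cyp27a1, -0.0033 to 0.30 for Akr1d1 and -0.071 to 0.079 for Amacr. In eWAT they ran from -0.15 to 0.76 for Cyp7a1, -0.15 to 1.27 for Cyp8b1, -0.18 to 0.15 for Cyp27a1, -0.0083 to 0.32 for Hsd3b7, -0.24 to 0.80 for Akr1d1 and -0.014 to 0.59 for Baat. With the hepatocyte covariate, eWAT differences were -0.11 for Cyp7a1, -0.47 for Cyp8b1, -0.53 for Akr1d1, -0.084 for Baat and -0.44 for Slc27a5. Counts over all genes moved more: with trend and robust settings 74 genes were called in liver and 35 in the interaction, and with all 16 samples in 1 fit 51 in liver and 25 in eWAT. With single libraries left out they ran from 7 to 24 in liver, 0 to 1 in eWAT and 7 to 27 in the interaction. The cause of these changes was not tested. With a replicate block 6 genes were called in liver, 0 in eWAT and 7 in the interaction. Between CT and F1, samples that share a number did not deviate together (correlations of -0.05 to 0.05 in liver and -0.26 to 0.18 in eWAT). Between liver and eWAT the 8 same-numbered pairs correlated at 0.01 to 0.04 and the others at -0.03 to 0.02. The same-numbered pairs were mostly the higher ones, but all these correlations were small. They cannot decide whether liver and eWAT samples of the same number came from the same animal. The main fits did not use the numbers as pairs. The filter at the 50th percentile left some eWAT members untested. Background correction and slide could not be varied on these values.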
